A study of Danio rerio with 8 samples.

Results

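Primordial germ cells (PGCs) of zebrafish embryos homozygous for a mutation of pigu were compared with PGCs of wild type embryos at the shield stage, the early gastrula. The comparison rests on 4 of the 8 libraries of the series, 2 of mutant and 2 of wild type PGCs. It covers the 11469 genes, of 31200 gene symbols, whose FPKM was at least 1 in at least 2 of these 4 libraries. FPKM are fragment counts corrected for the length of the transcript and the size of the library. The last gene inside that filter had 1.001 FPKM in its second highest library and the next gene outside had 0.9997. Zygotes of both genotypes had received GFP-nanos1-3′UTR mRNA, whose protein product accumulates in PGCs. The labels name the Tu and India wild type strains and, as a line used, Tg(kop:EGFP-nanos 3′UTR). Embryos were freed of chorion and yolk and broken up mechanically, fluorescent cells were picked by mouth pipette, and cells of embryos with the same genotype were pooled before SMART-seq2, an amplification of polyadenylated RNA from low input. The number of embryos and cells in a pool, the pigu allele and the genotype of the mothers are not given in the labels. Each pool is described there as a biological replicate. The values are of bulk RNA, in which fewer cells of a type and less RNA per cell cannot be told apart.

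The product of pigu is a subunit of GPI transamidase. This complex sits in the membrane of the endoplasmic reticulum (ER), removes a carboxy-terminal signal from its substrate proteins and joins them to glycosylphosphatidylinositol (GPI), a glycolipid that then holds them on the cell surface. The GPI lipid is built stepwise by products of further pig genes outside this complex. It is trimmed after attachment, when p24 proteins carry the anchored protein from the ER to the Golgi. PGCs of zebrafish are set aside by maternal germ plasm and begin to migrate at about the onset of gastrulation, led by the chemokine Cxcl12a and its receptor Cxcr4b. The series asks how the transamidase affects this migration.

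The 4 shield libraries differed in how much they detected. Among the genes tested, 22.9% and 0.61% were listed at 0 in wild type replicates 1 and 2, and 44.3% and 2.15% in mutant replicates 1 and 2. Mitochondrial entries took 58.3% and 22.9% of all FPKM in wild type and 72.2% and 23.5% in mutant. Pearson's r of log2 values across genes was 0.77 between the 2 wild type libraries and 0.66 between the 2 mutant libraries, against 0.89 between the replicates numbered 2 of the different genotypes (11469 genes, which are not independent replicates). Read depth is not given by FPKM, so values carry no counting interval. From here on, paired values are those of replicates 1 and 2 in that order.

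The label of the cells was checked against marker genes. The 8 germ cell markers found in the table (among them ddx4, dnd1, nanos3, tdrd7a, ca15b and dazl) summed to 6015 and 22320 FPKM in wild type and to 4324 and 33100 in mutant, and all had FPKM of at least 1 in each library except piwil1, listed at 0 in mutant replicate 1. Of these sums nanos3 made up 3014 and 9313 FPKM in wild type and 2885 and 20924 in mutant. Whether reads of the injected reporter, which carries a nanos1 3′UTR, were counted as nanos3 is not stated. Markers of the enveloping layer, which covers the blastoderm, summed to 63.4 and 50.0 in wild type and to 581 and 20.9 in mutant (9 genes). Those of mesendoderm summed to 204 and 559 against 38.5 and 306 (7 genes), those of ectoderm to 46.9 and 144.5 against 62.7 and 174 (6 genes). The 5 markers of the yolk syncytial layer summed to at most 1.14 in any library, with apoa2 and apobb.1 listed at 0 in all 4. Other genes listed for this layer were not absent. The 6 tested summed to 449.8 and 446.5 in wild type and to 93.9 and 449.9 in mutant, most of it apoeb. Germ cell markers thus led in each library, and mutant replicate 1 held more enveloping layer signal than the other 3.

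No gene passed the test at shield. limma-trend on log2(FPKM + 1), with the 8 libraries fitted as 4 groups, called 0 of 11469 genes higher and 0 lower at a Benjamini-Hochberg adjusted p under 0.05 (0% each way). At an unadjusted p under 0.05 there were 52 higher (0.453%) and 144 lower (1.26%), 196 in all. On average 573.5 would be met if no gene differed and the model held. Dependence between genes widens the spread of that count. The clone-named locus BX571711.1 had the smallest adjusted p, 0.117. It lies outside the naming rule and is named because of that value. For each gene named by the rule the limma adjusted p was 1. A log2 difference below is mutant minus wild type of log2(FPKM + 1), which understates the difference of genes near 0, and is followed by limma's standard error.

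Without scaling, most genes lay on the lower side in mutant PGCs. The difference was above 0 for 3901 genes (34%) and below 0 for 7568 (66%), with a median of −0.35. Because this median moves with the libraries, from −1.32 without mutant replicate 2 to 0.60 without mutant replicate 1, the medians of gene lists are given relative to it. Genes are called separated here when both mutant libraries lay above, or both below, both wild type libraries. Were libraries exchangeable between the genotypes, a gene without tied values would be separated, in either direction, with a probability of 0.333. The genes separated here, higher and lower together, made up less than that share. Separation alone is therefore no evidence of a difference between genotypes. The shares of lists given below are set beside those of all genes and are not tests. There were 566 such genes on the higher side (4.94%) and 1569 on the lower (13.7%). This imbalance depended on scaling, since quantile normalization gave 1714 higher (14.9%) and 1534 lower (13.4%), with a median difference of 0.03, and median-of-ratios scaling gave 978 (8.53%) and 1738 (15.2%). Among the lower genes 293 had entered through the 2 wild type libraries alone, and 72 of the higher genes through the 2 mutant libraries alone, so that their separation was set by the filter. This holds for every gene described below whose values in the lower group are both under 1 FPKM. Of the 1569, 823 (52.5%) were listed at 0 in mutant replicate 1, and 158 in both mutant libraries. A gap of more than 1 log2 unit between the groups was left for 112 higher and 405 lower genes, and a gap of more than 2 for 31 and 88. The share separated as lower was 14.1% for genes with a mean under 5 FPKM, 12.8% from 5 to 20, 13.0% from 20 to 100 and 18.7% above 100, where 1.11% of genes were listed at 0 in mutant replicate 1.

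**Figure D1:**
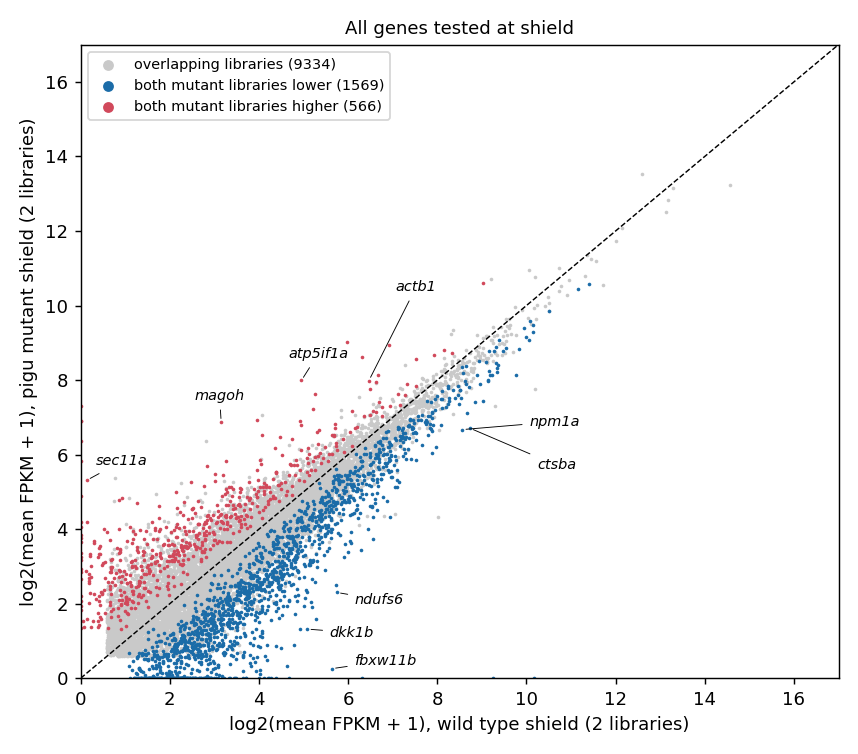
Mean level of each of the 11469 genes tested, as log2(mean FPKM + 1), in the 2 wild type (x axis) and 2 mutant (y axis) shield libraries. Coloured points are the 566 genes separated as higher and the 1569 separated as lower, and the dashed line marks equal levels. Unscaled, the lower side holds more separated genes (under quantile normalization it does not, with 1714 higher and 1534 lower), down to genes with no value in mutant libraries.

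None of the 5 genes of the transamidase itself passed the test. A difference below 0 was found for 4 of them (66% of all genes had one), and 3 were separated as lower (60%, against 13.7% of all genes). For 2 of the 3, pigk and gpaa1, both mutant values were under 1 FPKM, so that the filter fixed their separation, and pigu is the 1 left. pigu, the mutated gene, stood at 11.5 and 15 FPKM in wild type PGCs against 0.813 and 11 in mutant PGCs (−1.6 ± 1.75). Mutant replicate 2 thus kept most of the wild type level, while replicate 1 was near 0. pigk, the catalytic subunit, stood at 5.1 and 4.02 FPKM in wild type PGCs against 0 and 0.187 in mutant PGCs and was under 0.2 FPKM in both mutant libraries (−2.35 ± 1.22). gpaa1, which helps form the amide bond, stood at 4.71 and 5.09 FPKM in wild type PGCs against 0 and 0.874 in mutant PGCs (−2.11 ± 1.53). For pigs (9.87 and 20.9 FPKM in wild type PGCs against 4.09 and 9.96 in mutant PGCs) and pigt (0 and 2.14 FPKM in wild type PGCs against 0 and 2.6 in mutant PGCs), subunits that surround the catalytic one, the groups overlapped. Relative to all genes the median of the 5 was −1.26, and −1.65 to −0.76 when each shield library in turn was left out. All 5 had mean levels under 20 FPKM, in the range where mutant replicate 1 listed many genes at 0.

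The enzymes that build the GPI lipid were separated about as often as genes at large. Of 21 listed genes 18 were in the table and all 18 were tested, 13 with a difference below 0 (72.2%, against 66% of all genes), 3 separated as lower (16.7%, against 13.7%) and 1 as higher. The count of lower genes was 7 with median-of-ratios scaling (38.9%, against 15.2% of all genes) and 6 with quantile normalization (33.3%, against 13.4%). mpdu1b, which makes dolichol-linked mannose usable, stood at 9.03 and 21.2 FPKM in wild type PGCs against 0 and 3.74 in mutant PGCs (−2.78 ± 1.69). pigf, which takes part in adding ethanolamine phosphate, stood at 7.55 and 15.5 FPKM in wild type PGCs against 0 and 4.15 in mutant PGCs (−2.39 ± 1.59), and pigv, a mannosyltransferase, at 6.68 and 1.42 FPKM in wild type PGCs against 0 and 0 in mutant PGCs, a separation set by the filter. For pigx, the partner of another mannosyltransferase, pigm, the groups overlapped (32.1 and 8.23 FPKM in wild type PGCs against 0 and 16.6 in mutant PGCs). dpm1, the most abundant of the list and the catalytic subunit of dolichol phosphate mannose synthase, had 89.2 and 20.9 FPKM in wild type PGCs against 100.1 and 22.5 in mutant PGCs. Its genotypes differed less than its replicates did. Mutant replicate 1 listed 13 of the 18 at 0 and wild type replicate 1 listed 4. The list median was −1.02 relative to all genes (−1.27 to −0.3 with a library left out), and −0.15 between the replicates numbered 2 alone.

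Among genes for the trimming and export of anchored proteins, all 8 tested (of 9 listed) had a difference below 0, and 4 were separated as lower (50%, against 13.7% of all genes). pgap3, which exchanges the fatty acid of the anchor, stood at 7.63 and 8.1 FPKM in wild type PGCs against 0 and 3.88 in mutant PGCs (−2.0 ± 1.39). mppe1, which takes off an ethanolamine phosphate, stood at 5.84 and 7.87 FPKM in wild type PGCs against 0 and 3.29 in mutant PGCs, and pgap2, another lipid remodelling gene, at 58.2 and 61.9 FPKM in wild type PGCs against 20.1 and 43.1 in mutant PGCs. The p24 cargo receptor tmed10 stood at 44.1 and 49.3 FPKM in wild type PGCs against 18.3 and 33.8 in mutant PGCs (−0.88 ± 0.94), so that both mutant values were below both wild type values with no value at 0. Its relatives tmed2 (121 and 171 FPKM in wild type PGCs against 31.3 and 131 in mutant PGCs) and tmed9 (151 and 217 FPKM in wild type PGCs against 43.8 and 184 in mutant PGCs) overlapped between the groups through mutant replicate 2. The list median was −0.66 (−1.16 to −0.12 with a library left out).

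The substrates of the enzyme behaved less uniformly. Of 58 genes listed as coding for GPI-anchored proteins, 52 were in the table and 19 were tested, 12 of them with a difference below 0 and 3 separated as lower (15.8%, near the 13.7% of all genes). thy1, a surface glycoprotein, stood at 151 and 94.4 FPKM in wild type PGCs against 1.66 and 80.8 in mutant PGCs (−3.03 ± 1.53), and alpl, the alkaline phosphatase of bone and of early germ cells in mammals, at 16.8 and 17.8 FPKM in wild type PGCs against 0 and 11.4 in mutant PGCs. In both, the separation was wide through mutant replicate 1 and narrow through replicate 2. tdgf1, the co-receptor of Nodal known in zebrafish as one-eyed pinhead, stood at 128 and 227 FPKM in wild type PGCs against 104 and 126 in mutant PGCs (−0.57 ± 1.16). ca15b, a carbonic anhydrase gene expressed in PGCs, overlapped (792 and 4767 FPKM in wild type PGCs against 199 and 4703 in mutant PGCs), as did gas1a (0 and 15 FPKM in wild type PGCs against 6.21 and 22.5 in mutant PGCs). The median was −0.1 relative to all genes and took either sign when a library was left out (−0.47 to 0.48).

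Proteins that receive a GPI anchor first enter the ER, beginning with signal peptidase and the translocon. sec11a, a catalytic subunit of signal peptidase, stood at 0 and 0.208 FPKM in wild type PGCs against 44.2 and 33.4 in mutant PGCs (5.16 ± 1.58). Its wild type libraries were nearly without signal, and both mutant libraries were over 30 FPKM. It was tested through its mutant values alone and taken by the naming rule, so its separation is no result. Its accessory partner spcs1 was separated as lower, at 13.2 and 12.7 FPKM in wild type PGCs against 3.5 and 4.46 in mutant PGCs (−1.49 ± 1.22), but not under quantile normalization. spcs2 (13.2 and 125 FPKM in wild type PGCs against 0 and 121 in mutant PGCs) and spcs3 (197 and 84.7 FPKM in wild type PGCs against 92.8 and 89.3 in mutant PGCs) overlapped, with the value of spcs2 set mainly by the replicate number. Of the 28 genes tested for the translocon and signal recognition, 24 had a difference below 0 and 9 were separated as lower (32.1%, against 13.7% of all genes). The TRAP complex subunits ssr2, at 632 and 414 FPKM in wild type PGCs against 107 and 236 in mutant PGCs (−1.68 ± 0.79), and ssr4, at 528 and 283 FPKM in wild type PGCs against 111 and 166 in mutant PGCs (−1.51 ± 0.73), were high in all libraries and separated. srprb, a subunit of the receptor for the signal recognition particle, stood at 307 and 237 FPKM in wild type PGCs against 47.4 and 173 in mutant PGCs, and emc4 of the ER membrane complex, which inserts membrane proteins, at 20.2 and 4.11 FPKM in wild type PGCs against 0 and 0 in mutant PGCs. sec61g, part of the channel, overlapped (931 and 524 FPKM in wild type PGCs against 669.8 and 182 in mutant PGCs). The list median was −0.46, and 0.05 without wild type replicate 1.

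The oligosaccharyltransferase, which adds N-glycans beside the translocon, had 11 genes tested. Of these, 10 had a difference below 0 (90.9%, against 66% of all genes) and 6 were separated as lower (54.5%, against 13.7%), or 4 of 11 when mitochondrial entries were left out (36.4%, against 14.6%). ddost stood at 80.04 and 106 FPKM in wild type PGCs against 8.46 and 69.2 in mutant PGCs (−1.85 ± 1.01), magt1, which also moves magnesium, at 37.5 and 31.4 FPKM in wild type PGCs against 3.85 and 10.5 in mutant PGCs (−2.24 ± 1.42), and rpn2 at 9.88 and 40.5 FPKM in wild type PGCs against 0 and 9.31 in mutant PGCs. The small subunits tmem258 (721 and 279 FPKM in wild type PGCs against 251 and 226 in mutant PGCs), dad1 (58.8 and 60.4 FPKM in wild type PGCs against 29.9 and 38.8 in mutant PGCs) and krtcap2 (131 and 106 FPKM in wild type PGCs against 80.9 and 65.7 in mutant PGCs) were separated with no value near 0. For these 3 no value at 0 lay behind the separation. Their levels are unscaled, however, and mitochondrial entries took 58.3% and 22.9% of FPKM in wild type and 72.2% and 23.5% in mutant. The part of that share in the difference was not tested. The catalytic subunits stt3a (47.2 and 113 FPKM in wild type PGCs against 1.09 and 69.2 in mutant PGCs) and stt3b (31.1 and 57.8 FPKM in wild type PGCs against 6.48 and 40.6 in mutant PGCs) overlapped, and ost4 alone had a difference above 0 (1.21 ± 1.34). Mutant replicate 1 listed 1 of the 11 at 0. The median was −0.76 relative to all genes, −0.59 between the replicates numbered 2 alone, and between −1.46 and −0.71 when a library was left out.

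ER chaperones and folding enzymes followed the same side. Of 32 genes tested, 28 had a difference below 0 (87.5%, against 66% of all genes) and 11 were separated as lower (34.4%, against 13.7%). ppib, a prolyl isomerase of the ER, stood at 368 and 352 FPKM in wild type PGCs against 147 and 179 in mutant PGCs (−1.14 ± 0.72), and selenof, a selenoprotein that joins the glycoprotein quality control, at 396 and 219 FPKM in wild type PGCs against 154 and 214 in mutant PGCs. sdf2l1, a partner of BiP, stood at 30.1 and 30.7 FPKM in wild type PGCs against 0 and 19.5 in mutant PGCs, and pdia5, a disulfide isomerase, at 24.2 and 28.1 FPKM in wild type PGCs against 0.642 and 15.3 in mutant PGCs. hspa5, which codes for BiP, overlapped (111 and 339 FPKM in wild type PGCs against 43.9 and 173 in mutant PGCs, −1.14 ± 0.88), since wild type replicate 1 lay under mutant replicate 2. Genes of the unfolded protein response and of ER-associated degradation are induced when misfolded proteins collect in the ER. Of 25 tested, 18 had a difference below 0 (72%, against 66%) and 6 were separated as lower (24%, against 13.7%), none as higher. With quantile normalization 10 were lower (40%, against 13.4%). chac1, which degrades glutathione and is a late target of this response, stood at 157 and 208 FPKM in wild type PGCs against 50.8 and 61.9 in mutant PGCs (−1.67 ± 0.84), and xbp1, a transcription factor of the response, at 185 and 209 FPKM in wild type PGCs against 80.00 and 161 in mutant PGCs. herpud1 (84.5 and 191 FPKM in wild type PGCs against 32 and 89.1 in mutant PGCs) and syvn1 (27.24 and 80.5 FPKM in wild type PGCs against 1.12 and 38.3 in mutant PGCs), both of ER-associated degradation, overlapped. The medians were −0.62 and −0.67, and stayed below 0 with any 1 shield library left out (−0.82 to −0.51 and −0.88 to −0.18). Between the replicates numbered 2 alone they were −0.78 and −0.24. Mutant replicate 1 listed 9 of the 32 and 9 of the 25 at 0.

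Farther along the secretory route the lists lay closer to all genes. Of 55 genes tested for coats and tethers between ER and Golgi, 12 were separated as lower (21.8%, against 13.7% of all genes) and 2 as higher, with a median of −0.18, which was 0.03 when only genes that reached FPKM of 1 in each of the 4 libraries were kept. gosr2, a SNARE of the Golgi, stood at 102 and 97.5 FPKM in wild type PGCs against 11.9 and 31.9 in mutant PGCs (−2.29 ± 1.12), ergic2 at 26 and 13.8 FPKM in wild type PGCs against 0 and 4.99 in mutant PGCs, and the cargo receptor gene lman1 overlapped (48.5 and 126 FPKM in wild type PGCs against 0.465 and 88.9 in mutant PGCs). cope, a COPI coat subunit, overlapped at similar levels (132 and 166 FPKM in wild type PGCs against 162 and 191 in mutant PGCs). Genes for cholesterol and isoprenoid synthesis, which also feed the dolichol used in GPI and N-glycan assembly, had 4 of 22 separated as lower (18.2%, against 13.7%) and a median of −0.16. fdps, which makes farnesyl pyrophosphate, stood at 99 and 127 FPKM in wild type PGCs against 32.2 and 76.1 in mutant PGCs (−1.16 ± 0.92). Among lysosomal and autophagy genes 8 of 35 were separated as lower (22.9%, against 13.7%), 2 of them set by the filter. ctsba, which codes for cathepsin B, led them with 397 and 453 FPKM in wild type PGCs against 146 and 61.3 in mutant PGCs (−2.15 ± 0.8), and npc2, a sterol carrier, stood at 573 and 572 FPKM in wild type PGCs against 359 and 520.4 in mutant PGCs.

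**Figure D2:**
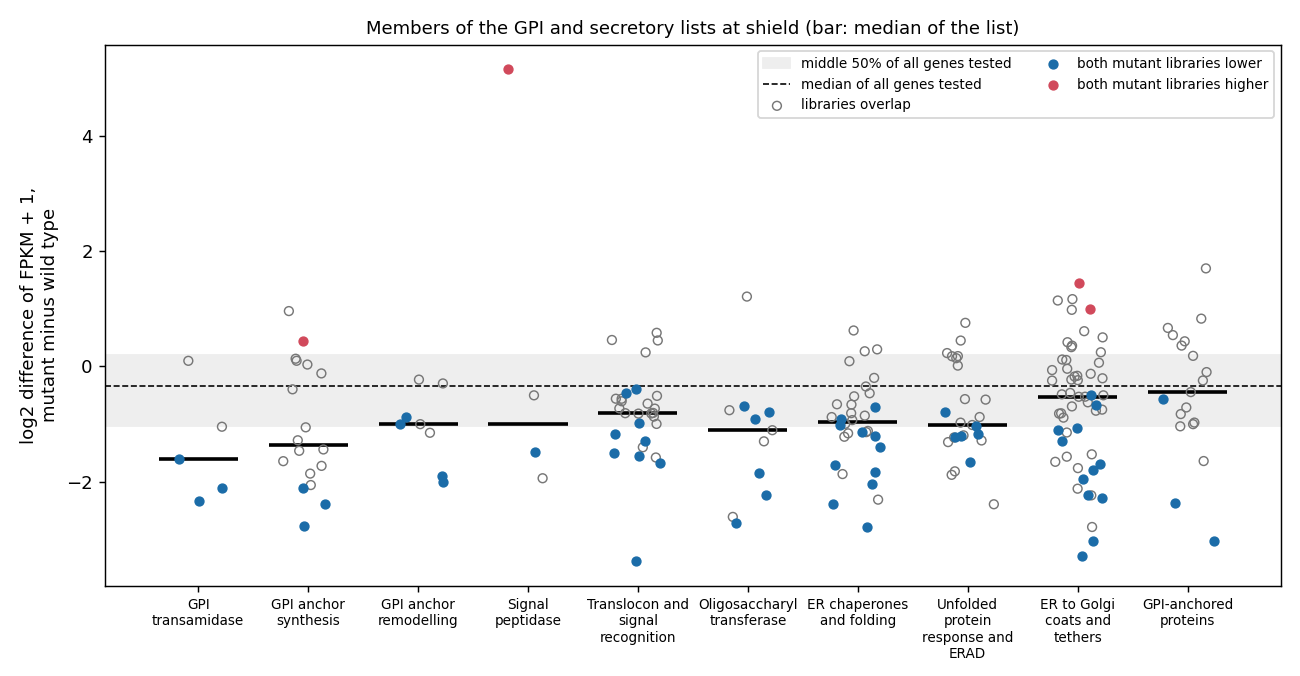
Log2 difference of FPKM + 1, mutant minus wild type at shield (y axis), for each tested gene of 10 lists of the GPI and secretory route (x axis). Filled points are separated genes, bars list medians, the dashed line the median of all genes (−0.35) and the grey band their middle 50%. sec11a is the point above 5.

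Of 44 lists with at least 5 genes tested, 10 had a median below that of all genes with each shield library left out in turn, 2 above it, and 32 changed sides. The 10 were transamidase, GPI synthesis, GPI remodelling, oligosaccharyltransferase, chaperones, unfolded protein response, ER to Golgi coats, mesendoderm, Nodal signalling, and cyclins and kinases (−0.19). Above it stayed glycolysis (0.35, 0.1 to 0.67) and the immediate early genes of dissociation stress (0.57, 0.12 to 0.85). The dissociation list lay on the other side, at −0.08, between the replicates numbered 2 alone. These counts describe 4 libraries, and lists that share genes are not independent.

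**Figure D3:**
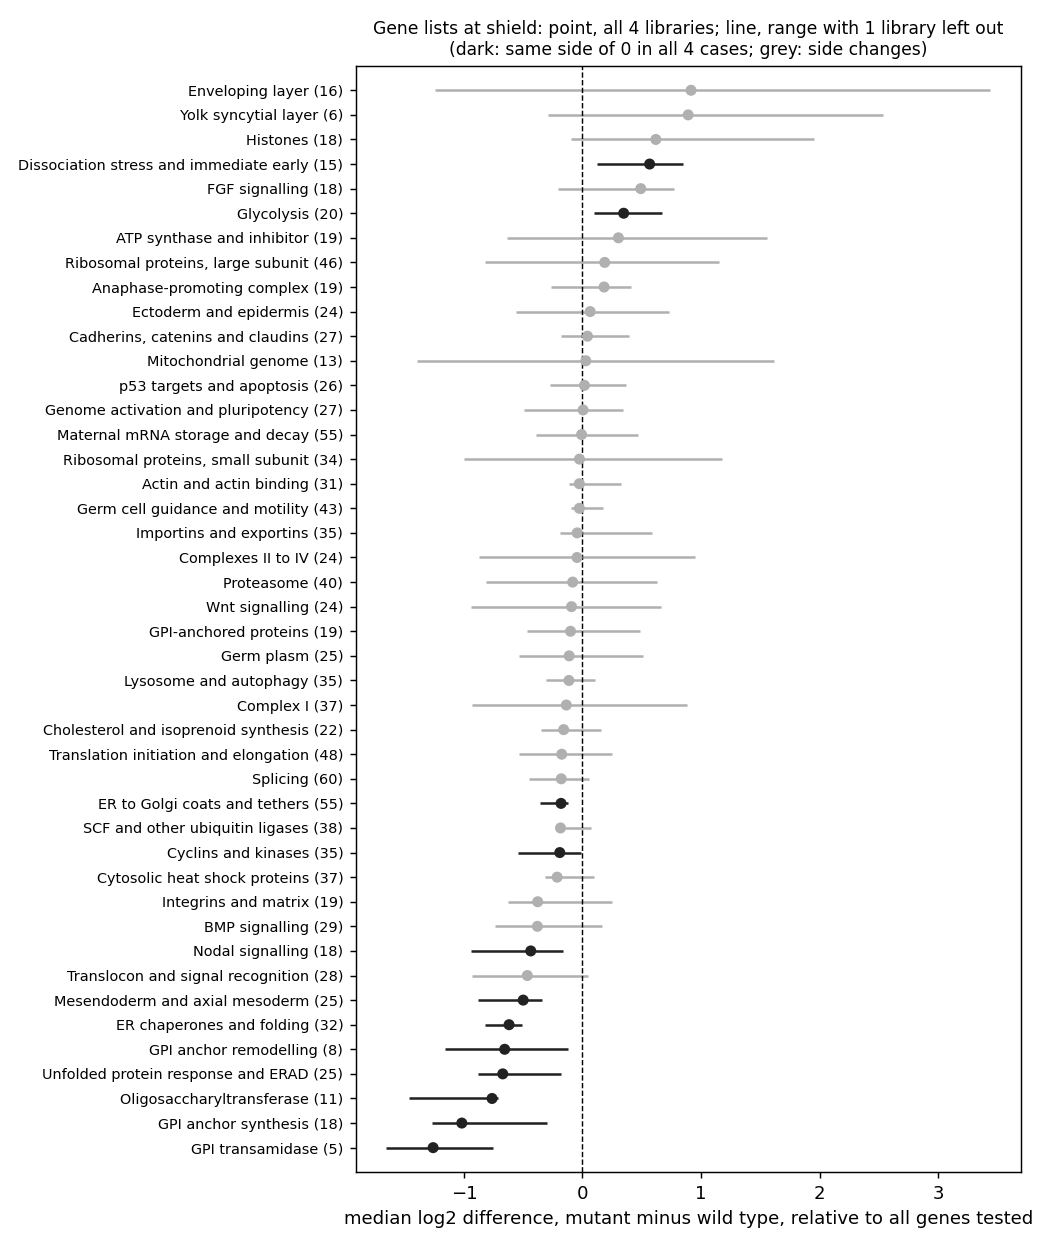
Median log2 difference of each gene list relative to all genes tested at shield (x axis, mutant minus wild type) for the 44 lists with at least 5 genes tested (number of genes in parentheses). Points use all 4 libraries and lines span the values with 1 library left out. Lists drawn dark stay on their side of 0, while those drawn grey, such as enveloping layer and mitochondrial genome, cross it.

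The single genes taken by smallest unadjusted p or by widest gap on the higher side included regulators of mitochondria, RNA and chromosomes. Of those given next, dlgap5, phb2a and myl6 were taken by gap alone. Their separation is set by the rule that chose them and is no result. atp5if1a, whose product blocks the ATP synthase of mitochondria, was at 30.1 and 29.8 FPKM in wild type PGCs against 221 and 286 in mutant PGCs (3.03 ± 0.81), with close values within each genotype. magoh, a core protein of the exon junction complex that marks spliced mRNA, stood at 8.21 and 7.57 FPKM in wild type PGCs against 120.3 and 112 in mutant PGCs (3.72 ± 1.35), also with close replicates. Choice by a small p favours gaps that are wide against the spread within each genotype, so the close replicates are no result either. ncapg, a condensin subunit, stood at 0 and 0.207 FPKM in wild type PGCs against 2.85 and 31.8 in mutant PGCs (3.35 ± 1.16), and dlgap5, a spindle protein gene, at 2.49 and 2.22 FPKM in wild type PGCs against 18.6 and 19.2 in mutant PGCs (2.57 ± 1.57). The nuclear receptor gene esrrb stood at 0 and 0.701 FPKM in wild type PGCs against 11.1 and 6.89 in mutant PGCs (2.9 ± 1.01). It belongs, in mouse, to the pluripotency network of embryonic stem cells. phb2a, a prohibitin of the inner mitochondrial membrane, stood at 0.534 and 1.95 FPKM in wild type PGCs against 13.4 and 15.8 in mutant PGCs (2.87 ± 1.3), and myl6, a myosin light chain, at 0 and 1.62 FPKM in wild type PGCs against 18.7 and 34 in mutant PGCs (4.02 ± 1.68).

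Others on the higher side act outside the nucleus and mitochondria. rab3ab, of a GTPase family in regulated exocytosis, stood at 0 and 0.319 FPKM in wild type PGCs against 11.9 and 6.14 in mutant PGCs (3.06 ± 1.05). ece2a, related to endothelin-converting enzymes, stood at 0 and 2.78 FPKM in wild type PGCs against 27.4 and 22.4 in mutant PGCs (3.73 ± 1.65), and s100v2, of the calcium-binding S100 proteins, at 0 and 1.78 FPKM in wild type PGCs against 44 and 11.3 in mutant PGCs (3.82 ± 1.4). slc45a3, a solute carrier, had 10.6 and 3.61 FPKM in mutant and at most 0.347 in wild type. GPHB5, named for a glycoprotein hormone subunit, had 6.59 and 19.9 in mutant and was listed at 0 in both wild type libraries, as was nlrc3, with 26.2 and 30.7. nlrc3 belongs to a large family of similar zebrafish genes, and hist1h2a5 (0 and 2.28 FPKM in wild type PGCs against 20.2 and 11 in mutant PGCs) is a copy of histone H2A, so that reads may be shared with relatives in either case.

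On the lower side, the genes taken by smallest p were often without signal in the mutant libraries. Of those given next, hint2 was taken by gap alone. fbxw11b, the substrate receptor of an SCF ubiquitin ligase that acts on beta-catenin, stood at 21.9 and 75.9 FPKM in wild type PGCs against 0.392 and 0 in mutant PGCs (−5.15 ± 1.32). kcnn1b, a calcium-activated potassium channel, stood at 33.1 and 15.5 FPKM in wild type PGCs against 0 and 0 in mutant PGCs, mei4, needed in mouse for meiotic DNA breaks, at 25.5 and 14.3 FPKM in wild type PGCs against 0 and 0 in mutant PGCs, and il13ra2, a cytokine receptor, at 10.5 and 5.84 FPKM in wild type PGCs against 0 and 0 in mutant PGCs. These last 3 were listed at 0 in both mutant libraries, and no fold is given for them. npm1a, which codes for the nucleolar protein nucleophosmin, stood at 260.4 and 495 FPKM in wild type PGCs against 188 and 13.7 in mutant PGCs (−2.77 ± 0.96). Its low library was mutant replicate 2, not replicate 1. ndufs6 of respiratory complex I stood at 71.1 and 34.6 FPKM in wild type PGCs against 0 and 7.85 in mutant PGCs (−4.09 ± 1.2), mgst3a, a microsomal glutathione transferase, at 82.7 and 43 FPKM in wild type PGCs against 0 and 19 in mutant PGCs (−3.76 ± 1.31), and hint2, a mitochondrial hydrolase, at 30.8 and 12.3 FPKM in wild type PGCs against 0 and 1.49 in mutant PGCs.

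Further genes on the lower side concern chromatin, translation and signalling. mbd3b, of the NuRD repressor complex, stood at 4.38 and 10.5 FPKM in wild type PGCs against 0 and 0.456 in mutant PGCs (−2.7 ± 0.92). eif3eb, of translation initiation factor 3, stood at 12.19 and 17.3 FPKM in wild type PGCs against 1.32 and 0.32 in mutant PGCs (−3.15 ± 1.6), and its near copy eif3ea may share its reads. GNG12, a G protein gamma subunit, stood at 32.7 and 20.8 FPKM in wild type PGCs against 0 and 1.69 in mutant PGCs (−4.04 ± 1.22), and tmem79a, a membrane protein gene, at 14.3 and 11.9 FPKM in wild type PGCs against 0 and 0.501 in mutant PGCs (−3.52 ± 1.13). acot20, an acyl-CoA thioesterase gene, stood at 12.5 and 10.4 FPKM in wild type PGCs against 0 and 1.11 in mutant PGCs (−3.1 ± 1.55). dkk1b, the secreted Wnt antagonist of the organizer, stood at 44.3 and 21.7 FPKM in wild type PGCs against 2.65 and 0.34 in mutant PGCs (−3.86 ± 1.38), and hsp70l, an inducible heat shock gene, at 11 and 19.6 FPKM in wild type PGCs against 0 and 0.346 in mutant PGCs (−3.76 ± 1.56). None of the 30 genes that the rule takes by p or by gap turned its sign in any alternative run. The rule takes separated genes only. With a shield library left out or another pseudocount the sign was therefore fixed in advance, and those runs are no support.

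**Figure D4:**
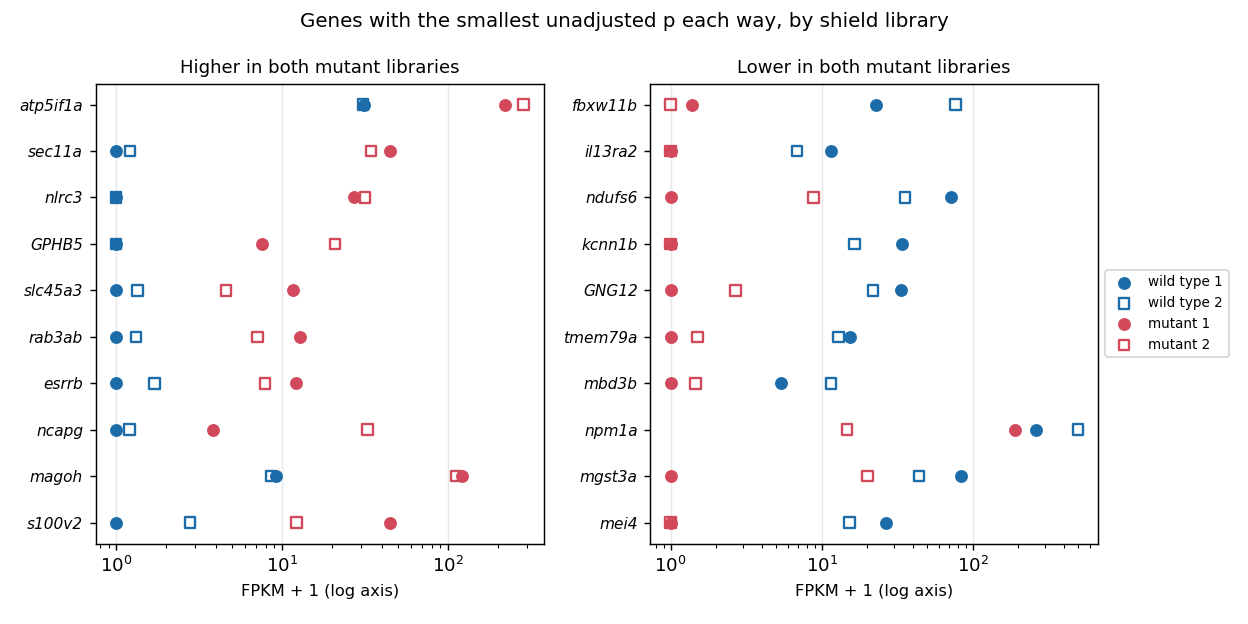
FPKM + 1 (x axis, logarithmic) in each of the 4 shield libraries for the 10 genes each way with the smallest unadjusted p among separated genes. Circles are replicates 1 and squares replicates 2, blue for wild type and red for mutant. Points at 1 are values of 0, which the mutant libraries hold for il13ra2, kcnn1b and mei4.

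Germ plasm genes, which define PGCs, did not lean to a side. Of 25 tested, 18 had a difference below 0 (72%, against 66% of all genes). Separated as lower were 2 (8%, against 13.7%) and as higher 2 (8%, against 4.94%). The median was −0.11 (−0.54 to 0.51 with a library left out). nanos3, a translational repressor that keeps zebrafish germ cells alive, stood at 3014 and 9313 FPKM in wild type PGCs against 2885 and 20924 in mutant PGCs (0.55 ± 0.85), and piwil1, of the piRNA pathway, at 8.65 and 19.7 FPKM in wild type PGCs against 0 and 13.5 in mutant PGCs. Both genes were higher in the replicates numbered 2 of either genotype. Whether the nanos3 values hold reads of the injected reporter is, as said above, not stated. The higher genes were tdrd12, a Tudor protein gene of the piRNA pathway (1.71 and 2.17 FPKM in wild type PGCs against 4.1 and 8.72 in mutant PGCs), and org (354 and 215 FPKM in wild type PGCs against 494 and 395 in mutant PGCs). hspb1, a small heat shock gene that the list also holds, was separated as lower (1093 and 1026 FPKM in wild type PGCs against 272 and 802 in mutant PGCs, −1.18 ± 0.9). The guidance and motility list had 3 of 43 genes separated as lower (6.98%, against 13.7% of all genes), or 6 with median-of-ratios scaling (14%, against 15.2%), none as higher, and a median of −0.03. cxcr4b, the guidance receptor, stood at 284 and 655 FPKM in wild type PGCs against 316 and 574 in mutant PGCs (−0.02 ± 0.89), and rac1a, the GTPase of actin-rich protrusions, at 242 and 574 FPKM in wild type PGCs against 158 and 555 in mutant PGCs (−0.33 ± 0.77). In both, the difference between genotypes was smaller than that between replicates. The 3 were pfn1, a profilin that feeds actin growth (116 and 134 FPKM in wild type PGCs against 42.3 and 39.7 in mutant PGCs, −1.58 ± 1.0), the GTPase gene cdc42l (11.7 and 16.8 FPKM in wild type PGCs against 2.0 and 7.01 in mutant PGCs) and itgav, an integrin alpha subunit (4.37 and 6.55 FPKM in wild type PGCs against 0 and 3.73 in mutant PGCs). itgb1b, an integrin beta subunit, overlapped (25.9 and 72.6 FPKM in wild type PGCs against 0 and 44.7 in mutant PGCs).

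Actin genes did not share a direction. actb1 was separated as higher (72.2 and 103 FPKM in wild type PGCs against 206 and 299.96 in mutant PGCs, 1.52 ± 0.72), while the more abundant actb2 overlapped (887 and 1018 FPKM in wild type PGCs against 473 and 1397 in mutant PGCs, −0.22 ± 0.7). These 2 cytoplasmic actins are near-identical in their coding sequence, and how the counting split reads between them is not stated. tpm3, a tropomyosin (58 and 168 FPKM in wild type PGCs against 5.45 and 111 in mutant PGCs), and capza1a, of the actin capping protein (39.8 and 63.9 FPKM in wild type PGCs against 1.63 and 61.9 in mutant PGCs), were low in mutant replicate 1 alone. Of 31 genes of actin and actin binding, 3 were separated as lower (9.68%, against 13.7% of all genes) and 2 as higher (6.45%, against 4.94%). Among cadherins, catenins and claudins 4 of 27 were separated as lower (14.8%, near the 13.7% of all genes). They included epcam (282 and 322 FPKM in wild type PGCs against 243 and 216 in mutant PGCs), an adhesion molecule, and cldng (549 and 404 FPKM in wild type PGCs against 294 and 268 in mutant PGCs), a claudin. Integrin and matrix genes had 3 of 19 (15.8%, near the 13.7% of all genes). lims1, a partner of integrin-linked kinase, was among them (24.3 and 20.1 FPKM in wild type PGCs against 3.93 and 13.4 in mutant PGCs).

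Genes of mesendoderm and axial mesoderm lay mostly lower in mutant PGC libraries, without passing the test. Of 43 listed 25 were tested, 21 had a difference below 0, 8 were separated as lower (32%, against 13.7% of all genes, 2 of the 8 set by the filter) and 2 as higher, and the median was −0.5 (−0.88 to −0.34 with a library left out). tbxta, the Brachyury gene of the margin and notochord, stood at 118 and 408 FPKM in wild type PGCs against 2.04 and 199 in mutant PGCs (−3.16 ± 1.41), and noto, of the notochord, at 33 and 37.2 FPKM in wild type PGCs against 0 and 6.22 in mutant PGCs (−3.74 ± 1.96). In mutant replicate 1 both were near or at 0, as they were not in mutant replicate 2. The groups overlapped for tbxta, while noto was separated as lower. The forkhead genes of endoderm and axial tissue foxa (24.5 and 22.7 FPKM in wild type PGCs against 2.83 and 9.42 in mutant PGCs), foxa2 (8.46 and 7.56 FPKM in wild type PGCs against 0 and 1.64 in mutant PGCs) and foxa3 (5.9 and 8.4 FPKM in wild type PGCs against 0 and 3.08 in mutant PGCs) were separated as well. vox, a ventral repressor of organizer genes, stood at 309 and 525 FPKM in wild type PGCs against 209.98 and 238 in mutant PGCs (−0.85 ± 0.8), and its relative ved overlapped (303 and 547 FPKM in wild type PGCs against 34.1 and 816 in mutant PGCs). gata6, of endoderm and yolk syncytial layer, was separated as higher (0.747 and 0.918 FPKM in wild type PGCs against 10.4 and 8.56 in mutant PGCs, 2.51 ± 1.34), which the filter fixed, both wild type values being under 1. Nodal signalling genes, which share members with this list, had 4 of 18 separated as lower (22.2%, against 13.7% of all genes). The filter set 1 of the 4, and the median was −0.44. lft2, a feedback inhibitor of Nodal, stood at 2.82 and 2.84 FPKM in wild type PGCs against 0 and 0 in mutant PGCs, and foxh1, a transcription partner of the pathway, at 33.3 and 154 FPKM in wild type PGCs against 8.46 and 141 in mutant PGCs. The mesendoderm marker sum given above, 204 and 559 FPKM against 38.5 and 306, moves with these values, as do the zeros of mutant replicate 1. Some markers in that sum went other ways. sox32 stood at 0.98 and 0.25 FPKM in wild type PGCs against 17 and 0.33 in mutant PGCs. For gsc (4.48 and 5.11 FPKM against 2.01 and 12.6) and chrd (30.3 and 38.05 FPKM against 12 and 61) the mutant libraries lay on either side of wild type. Between the replicates numbered 2 alone the list median was −1.0.

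Enveloping layer genes split the mutant libraries. krt97 stood at 4.73 and 7.41 FPKM in wild type PGCs against 159.8 and 2.08 in mutant PGCs (1.68 ± 1.79), krt5 at 1.34 and 0.0843 FPKM in wild type PGCs against 81.1 and 0.217 in mutant PGCs (2.65 ± 2.21), and both of these keratins were high in mutant replicate 1 alone. Of 16 genes tested 11 had a difference above 0. Separated as higher was 1 (6.25%, against 4.94% of all genes) and as lower 1 (6.25%, against 13.7%). The median of 0.92 became −1.25 without mutant replicate 1. ponzr1 was the separated higher gene (27.5 and 27.6 FPKM in wild type PGCs against 61.9 and 51.9 in mutant PGCs), and anxa1a the lower one (22.3 and 5.6 FPKM in wild type PGCs against 0 and 4.53 in mutant PGCs). Ectoderm and epidermis genes had 2 of 24 separated as lower (8.33%, against 13.7% of all genes). Among them was the forebrain gene foxg1a, which was low in every library (1.83 and 3.81 FPKM in wild type PGCs against 0 and 0.114 in mutant PGCs, −1.81 ± 0.75). The 6 tested genes of the yolk syncytial layer held 2 separated as higher, gata6 and the apolipoprotein gene apoa1b (3.48 and 0.342 FPKM in wild type PGCs against 7.38 and 4.77 in mutant PGCs), while apoeb stood at 374 and 420.3 FPKM in wild type PGCs against 32.1 and 376 in mutant PGCs.

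**Figure D5:**
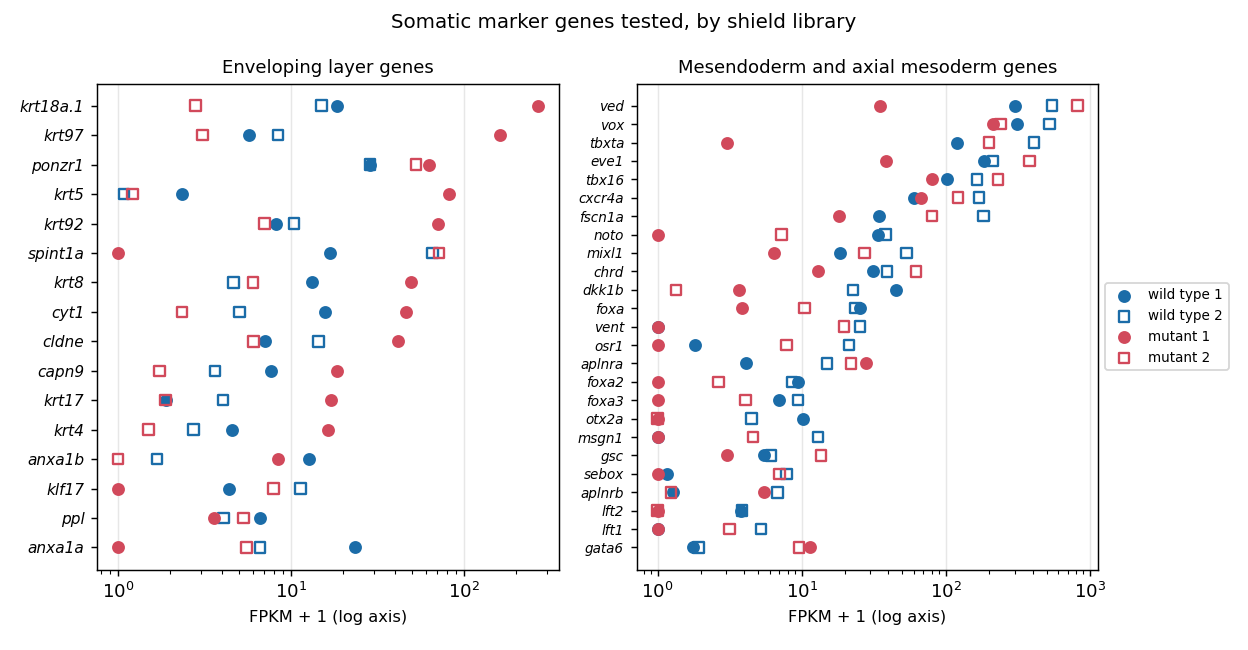
FPKM + 1 (x axis, logarithmic) in each of the 4 shield libraries for the tested genes of the enveloping layer list (left) and of the mesendoderm and axial mesoderm list (right). Circles are replicates 1 and squares replicates 2, blue for wild type and red for mutant. Mutant replicate 1 lies to the right for most keratins and to the left for most mesendoderm genes.

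In the other signalling pathways, shares are to be set beside the 13.7% of all genes separated as lower and the 4.94% as higher. BMP genes had 3 of 29 separated as lower (10.3%) and a median of −0.38. id1, a direct target of BMP, stood at 2243 and 2319.9 FPKM in wild type PGCs against 570.2 and 2225 in mutant PGCs (−1.02 ± 0.79). Wnt genes had 2 of 24 (8.33%), dkk1b and the target sp5a (1.4 and 5.13 FPKM in wild type PGCs against 0 and 0.672 in mutant PGCs), while the beta-catenin gene ctnnb1 overlapped (66.2 and 302 FPKM in wild type PGCs against 30.5 and 341 in mutant PGCs). FGF genes had none of 18 separated as lower and 1 as higher (5.56%), the phosphatase gene dusp4 (2.69 and 3.8 FPKM in wild type PGCs against 4.0 and 5.03 in mutant PGCs), with a median of 0.49. etv4, a target of FGF, stood at 55.6 and 143 FPKM in wild type PGCs against 10.5 and 131 in mutant PGCs. Each of these 3 medians took either sign when a library was left out.

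Nuclear genes of the respiratory chain spread to both sides. Complex I had 10 of 37 genes tested separated as lower (27%, against 13.7% of all genes) and 3 as higher (8.11%, against 4.94%). Under median-of-ratios scaling and under quantile normalization 5 were lower (13.5%) and 1 higher, a lower share near that of all genes. Besides ndufs6, the lower genes included ndufa10 (26.1 and 27.8 FPKM in wild type PGCs against 0.812 and 16.3 in mutant PGCs, −2.32 ± 1.17), ndufa12 (9.7 and 11.2 FPKM in wild type PGCs against 0 and 7.45 in mutant PGCs) and ndufv2 (20.2 and 15.1 FPKM in wild type PGCs against 0 and 14.5 in mutant PGCs), where mutant replicate 1 was near or at 0 and mutant replicate 2 lay closer to wild type. The abundant ndufb6 and ndufc2 overlapped (302 and 123 FPKM in wild type PGCs against 317 and 136 in mutant PGCs for ndufb6, 469 and 118 FPKM in wild type PGCs against 329 and 151 in mutant PGCs for ndufc2). Complexes II to IV had 2 of 24 separated as lower (8.33%, against 13.7%). The ATP synthase list also holds the inhibitor genes atp5if1a and atp5if1b. Of its 19 genes tested, 3 were separated as higher (15.8%, against 4.94% of all genes) and 3 as lower. These became 2 and 1 under quantile normalization (10.5% higher, against 14.9%). The higher genes include atp5if1a, described above, whose separation is set by the rule that chose it. atp5f1e, the epsilon subunit, was among the higher with 214 and 152 FPKM in wild type PGCs against 474 and 282 in mutant PGCs (1.01 ± 0.73), and atp5mc3a, one of several genes for the c ring, among the lower with 137 and 155 FPKM in wild type PGCs against 41.6 and 131 in mutant PGCs (−0.97 ± 0.84). The complex I and ATP synthase lists had medians of −0.14 and 0.3 that took either sign when a library was left out.

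The 13 protein genes of the mitochondrial genome held no separated gene. mt-atp8 stood at 37289 and 11165 FPKM in wild type PGCs against 11444 and 7654 in mutant PGCs (−1.12 ± 0.63) and mt-co2 at 16776 and 3109 FPKM in wild type PGCs against 12592 and 5700.01 in mutant PGCs (0.23 ± 0.79), with wild type replicate 1 the highest library for both. Their median was 0.03 relative to all genes and ran from −1.39 to 1.61 with a library left out. Ribosomal protein genes had a median of 0.19 for the large subunit, which ran from −0.82 to 1.15 with a library left out. Separated as lower were 5 of 46 (10.9%, against 13.7% of all genes) and as higher 2 (4.35%, against 4.94%). The small subunit had a median of −0.02 (−1.0 to 1.18), with 4 of 34 lower (11.8%, against 13.7%) and 1 higher. With median-of-ratios scaling none of either was lower. rplp2, of the ribosomal stalk, was separated as higher (45.5 and 33.4 FPKM in wild type PGCs against 67.2 and 133 in mutant PGCs, 1.25 ± 0.92) and its near copy rplp2l as lower (339 and 212 FPKM in wild type PGCs against 141 and 163 in mutant PGCs, −0.82 ± 0.73), so that reads may be divided between them. Translation factors had 6 of 48 separated as lower (12.5%, near the 13.7% of all genes). eef1a1l1, the main elongation factor, overlapped (2424 and 2686 FPKM in wild type PGCs against 865 and 2689 in mutant PGCs, −0.74 ± 0.72).

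Of 18 genes tested in the histone list, 7 were separated as higher (38.9%, against 4.94% of all genes) and 1 as lower. Under quantile normalization 5 were higher (27.8%, against 14.9%). The list also holds slbp and slbp2, which code for proteins that bind histone mRNA and overlapped between the groups. The median of 0.62 lost its sign without mutant replicate 1 or wild type replicate 2 (−0.1 to 1.95). hist1h2a11 stood at 1.04 and 13 FPKM in wild type PGCs against 66.6 and 20.02 in mutant PGCs (2.82 ± 1.38), and the maternal linker histone h1m, on the lower side, at 1291 and 869.7 FPKM in wild type PGCs against 810.1 and 735 in mutant PGCs (−0.46 ± 0.81). The abundant replacement histone gene h3f3b.1 overlapped (2899 and 2313 FPKM in wild type PGCs against 2127 and 3115 in mutant PGCs). Most core histone transcripts end without a poly(A) tail, come from near-identical copies, and are counted here after selection for poly(A).

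In the cell cycle, 5 of 35 cyclin and kinase genes were separated as lower (14.3%, near the 13.7% of all genes) and 1 as higher, and 9 were lower under median-of-ratios scaling and under quantile normalization (25.7%, against 15.2% and 13.4%). The mitotic cyclins ccnb1 (909.5 and 917 FPKM in wild type PGCs against 364 and 548 in mutant PGCs, −1.03 ± 0.69), ccnb2 (535 and 771 FPKM in wild type PGCs against 232 and 442 in mutant PGCs, −1.0 ± 0.75) and ccna1 (549 and 609 FPKM in wild type PGCs against 188 and 371 in mutant PGCs, −1.13 ± 1.05) were among the 5, with no value near 0. The anaphase-promoting complex marks cyclins for degradation. Its list also holds pttg1, espl1, ube2c, ube2s, cdc20 and fzr1a, which are not core subunits and overlapped. Of the 19 genes tested in the list of the complex, 2 were separated as higher (10.5%, against 4.94% of all genes) and none as lower. They were anapc11, its RING subunit, at 0 and 29.1 FPKM in wild type PGCs against 176 and 67.3 in mutant PGCs (4.32 ± 1.65), and anapc4 at 3.81 and 9.0 FPKM in wild type PGCs against 14.3 and 16.9 in mutant PGCs (1.25 ± 1.65). Proteasome genes had 12 of 40 separated as lower (30%, against 13.7% of all genes), but 7 with median-of-ratios scaling (17.5%, against 15.2%) and 6 with quantile normalization (15%, against 13.4%), and their median was −0.08 and took either sign under the scalings tried. psma3 stood at 281 and 189 FPKM in wild type PGCs against 41.3 and 157 in mutant PGCs (−1.5 ± 0.82), psmc3 at 119 and 115 FPKM in wild type PGCs against 12.13 and 81.7 in mutant PGCs (−1.84 ± 0.94), and psmb3 at 326 and 139 FPKM in wild type PGCs against 84 and 118 in mutant PGCs. The ubiquitin ligase list had 5 of 38 (13.2%, near the 13.7% of all genes), with skp1, the linker of SCF ligases, at 350.3 and 441 FPKM in wild type PGCs against 189 and 316 in mutant PGCs.

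RNA processing and stress genes completed the lists. Splicing genes had 13 of 60 separated as lower (21.7%, against 13.7%) and 1 as higher, with snrpa1 at 646 and 488 FPKM in wild type PGCs against 151 and 451 in mutant PGCs (−1.1 ± 0.73) and snrpa at 675 and 607 FPKM in wild type PGCs against 217 and 479 in mutant PGCs. Maternal mRNA storage and decay had 4 of 55 separated as lower (7.27%, against 13.7%). cpeb1b, which controls poly(A) tails of stored mRNA, stood at 14.8 and 55.9 FPKM in wild type PGCs against 0 and 5.49 in mutant PGCs (−3.56 ± 1.58), and ybx1, an mRNA-binding protein gene, overlapped (613 and 988 FPKM in wild type PGCs against 221 and 982 in mutant PGCs). Genome activation and pluripotency genes had 1 of 27 (3.7%, against 13.7%). Nuclear transport had 4 of 35 separated as lower (11.4%, against 13.7%), kpna2 among them (163 and 259 FPKM in wild type PGCs against 79.4 and 154 in mutant PGCs). nutf2, the carrier that returns Ran to the nucleus, was the 1 higher gene (14.2 and 25.6 FPKM in wild type PGCs against 59.95 and 30.6 in mutant PGCs, 1.12 ± 1.05).

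Heat shock genes split within a family. The list, named for cytosolic proteins, also holds the mitochondrial chaperone genes hspa9, hspd1 and hspe1 and the transcription factor genes hsf1 and hsf2, all of which overlapped. Of 37 tested, 8 were separated as lower (21.6%, against 13.7% of all genes) and 2 as higher (5.41%, near the 4.94% of all genes). The higher were hsp70.1 (1.46 and 1.74 FPKM in wild type PGCs against 6.87 and 6.14 in mutant PGCs) and hsp70.3 (60.2 and 134 FPKM in wild type PGCs against 217 and 273 in mutant PGCs, 1.43 ± 1.01), the lower included hsp70l, given above, and hsp90ab1 (651 and 641 FPKM in wild type PGCs against 55.3 and 536 in mutant PGCs, −1.9 ± 0.87). The hsp70 genes are near copies of each other, so that their reads may be shared. Among immediate early genes of cell dissociation 2 of 15 were separated as higher (13.3%, against 4.94% of all genes) and 3 as lower (20%, against 13.7%). fosab stood at 0 and 1.8 FPKM in wild type PGCs against 7.07 and 4.3 in mutant PGCs, and ier2a on the lower side at 82.7 and 83.4 FPKM in wild type PGCs against 46.8 and 80.1 in mutant PGCs. Genes of p53 and apoptosis had 4 of 26 separated as lower (15.4%, near the 13.7% of all genes), among them mcl1a, a survival gene (359.99 and 307 FPKM in wild type PGCs against 206 and 162 in mutant PGCs). Glycolysis had 1 of 20 each way (5%, against 4.94% of all genes higher and 13.7% lower). ldhba of lactate metabolism was higher (136 and 147 FPKM in wild type PGCs against 161 and 160.01 in mutant PGCs) and tpi1b lower (75.4 and 71 FPKM in wild type PGCs against 37.7 and 57.3 in mutant PGCs). gapdh stood at 326 and 220.2 FPKM in wild type PGCs against 224 and 334 in mutant PGCs (0.03 ± 0.78).

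The bud stage, at the end of gastrulation, offered the same contrast in 4 other libraries. Marker genes set mutant bud replicate 2 apart. Its dnd1 was 632 FPKM, below mutant replicate 1 (3134) and wild type (1633 and 2866). piwil1 and buc were lowest in mutant replicate 1 instead. Its krt18a.1 was 353.6 FPKM, above mutant replicate 1 (8.497) and wild type (13.46 and 1.569). Its noto was 109.4 FPKM, with 0 elsewhere at bud. foxi1 and gsc were not highest in it. The part of these marker differences in comparisons with bud was not tested. The 4 bud libraries had no part in which genes were separated at shield, but they entered the limma fit and so the p by which some genes were named. Between mutant and wild type bud, 986 of these genes were separated upward (8.6%) and 3392 downward (29.6%). Genes separated the same way at both stages numbered 51 on the higher side (0.445%) and 581 on the lower (5.07%). The 51 made up 9.01% of the higher genes at shield, against 8.6% of all genes that were higher at bud. They made up 5.17% of the higher genes at bud, against 4.94% of all genes that were higher at shield. The 581 made up 37% of the lower genes at shield, against 29.6% of all genes that were lower at bud. They made up 17.1% of the lower genes at bud, against 13.7% of all genes that were lower at shield. Separated the opposite way at bud were 146 of the higher genes (25.8%, against 29.6% of all genes) and 94 of the lower (5.99%, against 8.6%). Mutant bud replicate 1 listed 42.8% of these genes at 0, as mutant shield replicate 1 did with 44.3%, and the part of this in the overlap was not tested.

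Of the 10 higher genes with the smallest p at shield, 3 were separated the same way at bud (atp5if1a, sec11a and nlrc3) and none the opposite way. Of all genes tested, 8.6% were separated as higher and 29.6% as lower at bud. At bud atp5if1a stood at 90.1 and 77.2 FPKM in wild type PGCs and 436 and 524 in mutant PGCs, and sec11a at 2.43 and 5.1 FPKM in wild type PGCs and 29.2 and 11.5 in mutant PGCs. magoh, close between replicates at shield, overlapped at bud, with 6.84 and 5.27 FPKM in wild type PGCs and 18.5 and 3.13 in mutant PGCs. On the lower side, mei4 was separated the same way, with 7.47 and 12.3 FPKM in wild type PGCs and 0 and 1.06 in mutant PGCs, and ndufs6 the opposite way. fbxw11b, nearly without signal in mutant shield, overlapped at bud, with 34.3 and 43.5 FPKM in wild type PGCs and 74.3 and 26.8 in mutant PGCs, and npm1a did too, with 324 and 532 FPKM in wild type PGCs and 412 and 978 in mutant PGCs. By width of gap, which rests on shield libraries alone, 3 of 10 higher genes were separated the same way at bud (atp5if1a, sec11a and nlrc3). The opposite way were 3 (myl6, ece2a and phb2a), near the 29.6% of all genes that were lower at bud. Of 10 lower genes 3 were also lower at bud (mei4, hsp70l and acot20), again near 29.6%. Higher at bud was 1, dkk1b, against 8.6% of all genes. hsp70l stood at 4.96 and 10.7 FPKM in wild type PGCs and 0 and 2.84 in mutant PGCs, and acot20 at 9.45 and 13.2 FPKM in wild type PGCs and 0 and 1.13 in mutant PGCs. GNG12, il13ra2, mbd3b and slc45a3 were listed at 0 in all 4 bud libraries and so added no spread there to the fit that chose them. A test of the interaction of genotype and stage over the same 11469 genes called 0 (limma, smallest adjusted p = 1). At an unadjusted p under 0.05 there were 109, where 573.5 would be met on average if no gene differed and the model held.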

How the data were processed

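RNA of picked zebrafish PGC pools was measured by SMART-seq2 with paired-end sequencing on a NextSeq 500, per the labels' protocols. The deposited table holds FPKM, 1 column per library. Per the submitters' processing notes, danRer11 was the build, and the tools were Cufflinks 2.2.1, STAR 2.5.3a and Trim Galore. The annotation, the strand setting and the treatment of multiply aligned reads are not given in the sources used here. An extraction protocol in the labels speaks of oocytes. FPKM list low and missing molecules alike at 0, low values did not resolve into whole reads, and mitochondrial reads take up part of each total, so depth is unknown and levels of other genes depend on that share.

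The table has no coordinates and lists 31934 entries under 31200 symbols. Where a symbol occurred repeatedly (545 symbols) its most abundant entry was used, and 2 incomplete entries were dropped. The deposited FPKM were tested as log2(FPKM + 1), unscaled. limma-trend (limma 3.58.1, R 4.3.3) fitted all 8 libraries as 4 groups, since the bud libraries add to the estimate of the spread, with 4 residual degrees of freedom and 21.1 after moderation. P-values are two-sided and measure the spread between pools. An exact permutation test of 2 against 2 libraries cannot go below p = 0.333 and was not used. A check of the fit on simulated data required recovery only at a spread smaller than the standard errors given here. That check therefore does not tell how many differences this design could find. Figures were made in matplotlib 3.10.9 under Python 3.11.15.

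Genes named in the text are the 10 each way with the smallest unadjusted p among separated genes with a mean of at least 5 FPKM in the higher group, the 10 each way with the widest gap and at least 10 FPKM in both libraries of the higher group (5 genes each way meet both), the subunits of the transamidase, and from each list at most 4 genes by smallest p and 3 by highest level. Clone-named loci were left out. Other list members named were chosen after their values were seen. The 45 lists hold 1535 genes, 1446 of them in the table, and overlap. The members and lists were chosen with earlier results of these data known. Alternatives changed the pseudocount, filter, scaling, libraries, moderation, weights, threshold, replicate block and merging of entries.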

Additional observations from a re-analysis of the deposited data

Results flagged for a closer look

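Genes among the 30 taken by p or by gap were set apart when their libraries were separated one way at shield and the opposite way at bud. The difference between the stages, shield minus bud on the log2 scale, was tested as an interaction in the limma fit of all 8 libraries. Each of the 5 had a limma adjusted p of 1. They were chosen by opposite separation in the same 8 libraries. The sign of each difference was therefore fixed in advance and a large size favoured, so the estimates below are no support. Of all genes tested, 29.6% were separated as lower and 8.6% as higher at bud.

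The Wnt antagonist gene dkk1b had the largest of these differences in size, −7.36 ± 1.95. At shield, wild type PGCs had 44.3 and 21.7 FPKM and mutant PGCs 2.65 and 0.34. At bud, wild type PGCs had 9.55 and 5.13 and mutant PGCs 153 and 52.7. myl6, a myosin light chain, had 6.35 ± 2.38, with a shield effect of 4.02 and a bud effect of −2.32. ece2a had 5.56 ± 2.33, with 3.73 at shield and −1.83 at bud. phb2a, a prohibitin, had 3.88 ± 1.83, with 2.87 at shield. At bud it was listed at 0 in both mutant libraries, so its difference between the stages depends on the pseudocount. ndufs6, of complex I, had −4.48 ± 1.69, with −4.09 at shield and 0.39 at bud. Its mutant bud values of 96.2 and 90.1 FPKM lay above the wild type bud values of 74.8 and 66.7.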

How the results depend on the processing

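Calls at shield were few in every alternative. The reported fit made none (0 higher and 0 lower), while 1 lower gene was called with a pseudocount of 5, with median-of-ratios scaling and with robust moderation, 1 higher and 2 lower with only the 4 shield libraries, and 1 each way with the replicate block. Leaving out 1 library in turn gave 0 to 1 higher and 0 to 4 lower calls. Most of these were clone-named loci, chiefly BX571711.1, which had an adjusted p between 4.7e-06 and 0.0488 where called; dhx15, ilf3a, zgc:110239 and oaz1b were called without mutant shield replicate 2 (0.0493 each). Deviations of same-numbered libraries correlated at 0.013 to 0.328 over 6 pairs of groups, and the highest was that of wild type and mutant shield. The labels do not pair libraries by number, so the numbers were not taken to pair samples. Differences that go with the replicate number thus stay in the spread of the reported fit.

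Separated genes depended on scaling. Against 566 higher and 1569 lower, median-of-ratios scaling gave 978 and 1738, leaving out mitochondrial entries 923 and 1814, and quantile normalization 1714 and 1534, so that the lower side no longer led. When each of the 4 libraries had to reach FPKM of 1 there were 310 and 660, and with 1 library left out 566 to 4738 and 1569 to 6435. The highest came without mutant shield replicate 1 (higher) and replicate 2 (lower), each leaving 1 library in a group. Separated at both stages were 122 higher with median-of-ratios scaling and 449 with quantile normalization (51 as reported), 254 lower with the filter on all 4 libraries (581 as reported), and 72 to 464 higher and 688 to 2063 lower with 1 library left out. The median difference of all genes, −0.35, was −0.17 and 0.03 under these scalings, −0.22 without mitochondrial entries and −1.32 to 0.60 with 1 library left out. It was −0.03 without both shield replicate 1 libraries, an alternative chosen after seeing the data, which leaves 1 library a group and gives no separation. The causes were not tested.

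Of 1076 list medians under the alternatives, 128 had the other sign. Those of the transamidase, GPI synthesis, GPI remodelling, oligosaccharyltransferase, chaperone, unfolded protein response, mesendoderm, Nodal, cyclin and glycolysis lists had none. Under the 2 scalings and without mitochondrial entries the chaperone median lay between −0.63 and −0.55. Depth is unknown, so a value of 0 sets no upper limit.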

Other observations

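The locus BX571711.1, which had the smallest p at shield, had 2187 and 111 FPKM in wild type PGCs and was listed at 0 in both mutant libraries (limma adjusted p = 0.117). CABZ01002523.1 was next, with 199 and 38.4 FPKM in mutant PGCs and 0 in both wild type libraries (limma adjusted p = 0.702). Both carry clone-based names that the files do not pair with a gene name, and both were chosen after their values were seen.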
